A study of Mus musculus with 12 samples.

Results

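A set of 9 genes widely used as markers of monocytes and macrophages was followed across mouse tumor and liver: Adgre1, Csf1r, Cd68, Lyz2, Ccr2, Chil3, Ms4a7, Msr1 and Itgam. They were looked up by symbol in the deposited count table, and all 9 were found among its 52636 gene identifiers. The study treated wild-type female FVB/NJ mice carrying Fo5 tumors with an anti-HER2/CD3 antibody of the T cell-dependent bispecific kind (TDB), whose arms join HER2 on tumor cells to CD3 on T cells. Fo5 is a mammary tumor of a transgenic founder in which the MMTV promoter drives HER2, and pieces of it were placed in the mammary fat pad, so every mouse of the 4 groups carried a tumor of the same line beside its own leukocytes. The groups were tumor after TDB, tumor after vehicle, liver after TDB and liver after vehicle, with 3 libraries each. TDB was given once into a vein at 5 mg/kg, vehicle was the buffer alone, and dissociated organs were sequenced in bulk 24 h later. The design text counts 3 mice per treatment, and the labels do not give the age of the mice.

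Monocytes leave the bone marrow through the chemokine receptor CCR2 and enter inflamed tissue, where they can become macrophages. Macrophages depend on signals through the CSF1 receptor for survival, and they are recognised by F4/80 (the product of Adgre1), by the lysosomal glycoprotein CD68 and by lysozyme. The liver holds a large resident macrophage population, the Kupffer cells, whereas tumors hold macrophages of mixed origin together with recently arrived monocytes. A bulk library sums all cells, so more cells of a type and more RNA per cell cannot be told apart in any value given here.

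Total gene counts were 20796764 to 29396324 per tumor library and 18460159 to 25542980 per liver library. Levels are library-scaled counts (CPM) computed with the trimmed mean of M values (TMM) over the 12 libraries and are given as mean ± SD over the 3 libraries of a group. The TMM factors were 1.49 to 1.57 in tumor libraries and 0.595 to 0.743 in liver libraries, so that levels compared between the tissues rest on this scaling. The labelled tissues were clear in their markers: 6 hepatocyte genes summed to 0.237 to 24.3 CPM in tumor libraries and to 148563 CPM or more in each liver library, and 6 mammary epithelial genes summed to 13960 CPM or more in each tumor library and to 390 to 899 CPM in liver libraries. Among the TDB livers, replicate 3 stood apart, with 57.2 CPM of the leukocyte gene Ptprc against 14.5 and 25.6 CPM in the other two TDB livers.

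The promoter windows of the markers that passed the test in TDB-treated tumors are shown first, where a window was searched. The windows come from a RefSeq table (GRCm38.p6, 250 bases before to 50 bases after the annotated start). Csf1r was left out of the search, and 6 of the 9 markers had a window that was searched. Capitals mark matches, on either strand, to 3 short motifs: GAGGAA, the core of sites for the myeloid factor PU.1, TTGCNNAA, a C/EBP site, and TTCNNNGAA, the STAT site known as GAS. Offsets give the first base of a match, with the start site as 0. The core of the interferon-stimulated response element was also searched and had no match in these windows.
Itgam (chr7:128062390-128062689, plus strand): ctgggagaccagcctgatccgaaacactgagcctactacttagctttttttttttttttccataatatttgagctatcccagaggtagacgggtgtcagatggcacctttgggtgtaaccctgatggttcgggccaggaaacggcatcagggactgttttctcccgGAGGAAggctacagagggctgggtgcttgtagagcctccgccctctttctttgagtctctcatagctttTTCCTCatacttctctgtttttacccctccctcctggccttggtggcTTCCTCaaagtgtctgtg
Cd68 (chr11:69666121-69666420, minus strand): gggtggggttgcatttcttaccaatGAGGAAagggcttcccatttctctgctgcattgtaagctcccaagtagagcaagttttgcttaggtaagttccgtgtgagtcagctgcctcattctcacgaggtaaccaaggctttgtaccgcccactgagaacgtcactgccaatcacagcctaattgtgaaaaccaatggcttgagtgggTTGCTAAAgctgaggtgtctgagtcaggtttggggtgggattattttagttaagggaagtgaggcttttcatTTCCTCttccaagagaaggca
Chil3 (chr3:106167515-106167814, minus strand): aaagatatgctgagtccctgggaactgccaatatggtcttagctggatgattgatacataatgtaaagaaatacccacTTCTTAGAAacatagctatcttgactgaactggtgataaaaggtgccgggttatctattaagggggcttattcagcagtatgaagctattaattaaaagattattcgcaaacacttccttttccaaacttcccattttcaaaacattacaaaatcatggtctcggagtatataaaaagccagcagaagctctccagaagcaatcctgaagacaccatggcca
Ccr2 (chr9:124101933-124102232, plus strand): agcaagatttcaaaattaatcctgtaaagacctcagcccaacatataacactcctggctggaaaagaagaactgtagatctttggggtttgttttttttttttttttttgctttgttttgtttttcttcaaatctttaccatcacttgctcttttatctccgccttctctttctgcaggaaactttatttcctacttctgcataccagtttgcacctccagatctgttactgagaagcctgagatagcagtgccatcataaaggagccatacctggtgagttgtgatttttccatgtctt

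Itgam, which encodes the integrin chain CD11b, held 3 PU.1 cores, at offsets -84, -15 and 32. Cd68 held 2 PU.1 cores, at -225 and 29, and 1 C/EBP match at -43. Chil3 held 1 GAS match at -172, and the Ccr2 window held no match. That window (124101933 to 124102232) lies almost wholly inside the GENCODE gene model, which starts at 124101950, so it holds little sequence before that start. Lyz2 and Ms4a7, which did not pass in tumors, were searched but are not shown. The Lyz2 window held no match. Ms4a7 held 1 PU.1 core, at 43, in its window at 11336097 and no match in its window at 11334646. Among 32851 mouse promoters of the same length, 28.3% held the PU.1 core, 10.8% the C/EBP motif, 8.3% the GAS motif and 3.44% the response element core. The motif matches do not overlap one another, and they describe letters in these windows only.

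The 9 markers differed widely in level. Per kilobase of exon, Lyz2, which encodes the bacteria-digesting enzyme lysozyme M, was the highest of the 9 in all 4 groups, at 83.1 ± 28.9 CPM per kb in TDB tumors, 63.2 ± 14.8 in vehicle tumors, 217 ± 29.7 in TDB livers and 203 ± 47.6 in vehicle livers. Cd68 came next in each group, and its range over the 3 libraries did not meet that of its neighbours in the order. Csf1r stood in the third place in each group, and below it the order differed between groups. In vehicle tumors the ranges of Csf1r, Adgre1, Ms4a7 and Msr1 overlapped from one to the next, between 4.20 ± 0.710 CPM per kb for Csf1r and 1.84 ± 0.828 for Msr1. Chil3 had the lowest mean in both tumor groups, at 1.16 ± 0.0896 CPM per kb in TDB tumors, where its range overlapped that of Ms4a7, and 0.00605 ± 0.0105 in vehicle tumors. Ms4a7 had the lowest mean in both liver groups, at 0.0922 ± 0.0296 CPM per kb in TDB livers, where its range overlapped that of Itgam, and 0.0748 ± 0.00477 in vehicle livers.

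In tumors, 24 h after TDB, 6 of the 9 markers were higher. Ccr2 rose 2.96 on the log2 scale and Itgam rose 2.17, Chil3 was nearly without reads in vehicle tumors and was counted in each TDB tumor, Msr1 rose 1.79, Csf1r rose 1.09 and Cd68 rose 0.75. Adgre1, Lyz2 and Ms4a7 did not pass the test.

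Ccr2 (chr9:124101950-124113557, plus strand, GRCm38) encodes the receptor for the monocyte chemokine CCL2. It had 16.2, 11.7 and 13.7 CPM in TDB tumors, against 2.03, 1.52 and 2.10 CPM in vehicle tumors. Every TDB tumor was above every vehicle tumor, and the groups were far apart. The log2 fold change was 2.96 (SE 0.18), with an adjusted p of 6.3e-06 (edgeR, quasi-likelihood test, Benjamini-Hochberg over all genes tested, as for each adjusted p below).

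Chil3 (chr3:106147554-106167564, minus strand) encodes the secreted chitinase-like protein Ym1 of mouse monocytes, neutrophils and macrophages. It had 62, 90 and 58 reads in TDB tumors, against 0, 0 and 1 read in vehicle tumors. The groups did not overlap, and with 1 read over the vehicle group the size of the change is loosely bounded. The depth-scaled count ratio of TDB over vehicle tumors was 190, with a 95% interval of 33.7 to 7534 that covers counting error only, and the adjusted p from edgeR was 1.8e-05. Its near-identical neighbour Chil4, to which reads of Chil3 can be misassigned, had 0 reads in all 12 libraries.

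Itgam (chr7:128062640-128118491, plus strand) had 6.88, 9.11 and 8.66 CPM in TDB tumors, against 2.06, 0.971 and 2.75 CPM in vehicle tumors. The groups did not overlap, and the lowest vehicle value was replicate 2. The log2 fold change was 2.17 (SE 0.32; edgeR adjusted p = 0.0022). An overlapping gene model on the same strand, Gm49368, held at most 2 reads in a library.

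Msr1 (chr8:39581685-39642673, minus strand) encodes the class A scavenger receptor that takes up modified lipoproteins. It had 35.9, 40.5 and 37.7 CPM in TDB tumors, against 9.92, 7.53 and 17.6 CPM in vehicle tumors. TDB tumors lay close together and above the vehicle tumors, which were more spread. The log2 fold change was 1.79 (SE 0.30; edgeR adjusted p = 0.0076).

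Csf1r, the receptor for CSF1 and IL-34, had 48.7, 47.1 and 49.9 CPM in TDB tumors, against 26.2, 19.5 and 27.0 CPM in vehicle tumors. The TDB tumors were nearly equal to one another and did not overlap the vehicle tumors. The log2 fold change was 1.09 (SE 0.12; edgeR adjusted p = 0.00026). Csf1r shares exonic sequence with Hmgxb3 on the opposite strand, and the strand setting of the counts is not given in the sources used here.

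Cd68 (chr11:69664213-69666153, minus strand) had 28.2, 26.1 and 34.0 CPM in TDB tumors, against 18.5, 12.9 and 24.1 CPM in vehicle tumors. The groups did not overlap, but the highest vehicle tumor lay close to the lowest TDB tumor. The log2 fold change was 0.75 (SE 0.23), and its edgeR adjusted p of 0.049 was just under the threshold of 0.05. The call was lost with all 12 libraries in the fit (adjusted p = 0.0997), without the low-count filter (0.17), under upper quartile (0.061) and total-count scaling (0.066), and without TDB tumor 1 (0.102), 2 (0.086) or 3 (0.13) or vehicle tumor 1 (0.13).

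Adgre1 (chr17:57358691-57483527, plus strand), the gene of F4/80, had 11.05, 11.38 and 14.15 CPM in TDB tumors, against 11.03, 7.40 and 10.36 CPM in vehicle tumors. The lowest TDB tumor was only just above the highest vehicle tumor. The log2 difference of 0.43 (SE 0.17) did not pass (edgeR adjusted p = 0.088). Without the filter on low counts it passed, at an adjusted p of 0.043.

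Lyz2 (chr10:117277331-117282321, minus strand) had 96.9, 79.0 and 152 CPM in TDB tumors, against 78.7, 66.4 and 104 CPM in vehicle tumors. The groups overlapped, and replicate 3 was the highest library in both. The log2 difference of 0.48 (SE 0.30) did not pass (edgeR adjusted p = 0.29). Its near-identical paralog Lyz1 had 2 to 11 reads per library.

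Ms4a7 (chr19:11321039-11336146, minus strand), a membrane protein gene of the MS4A family used as a marker of mature macrophages, was the one marker with a negative log2 difference in tumors. It had 4.59, 6.48 and 9.18 CPM in TDB tumors, against 11.3, 8.50 and 8.46 CPM in vehicle tumors. TDB tumor 3 fell within the vehicle range and the other two TDB tumors lay below it. The log2 difference of -0.40 (SE 0.25) did not pass (edgeR adjusted p = 0.28), and without TDB tumor 3 it was -0.68 with an adjusted p of 0.043.

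**Figure D1:**
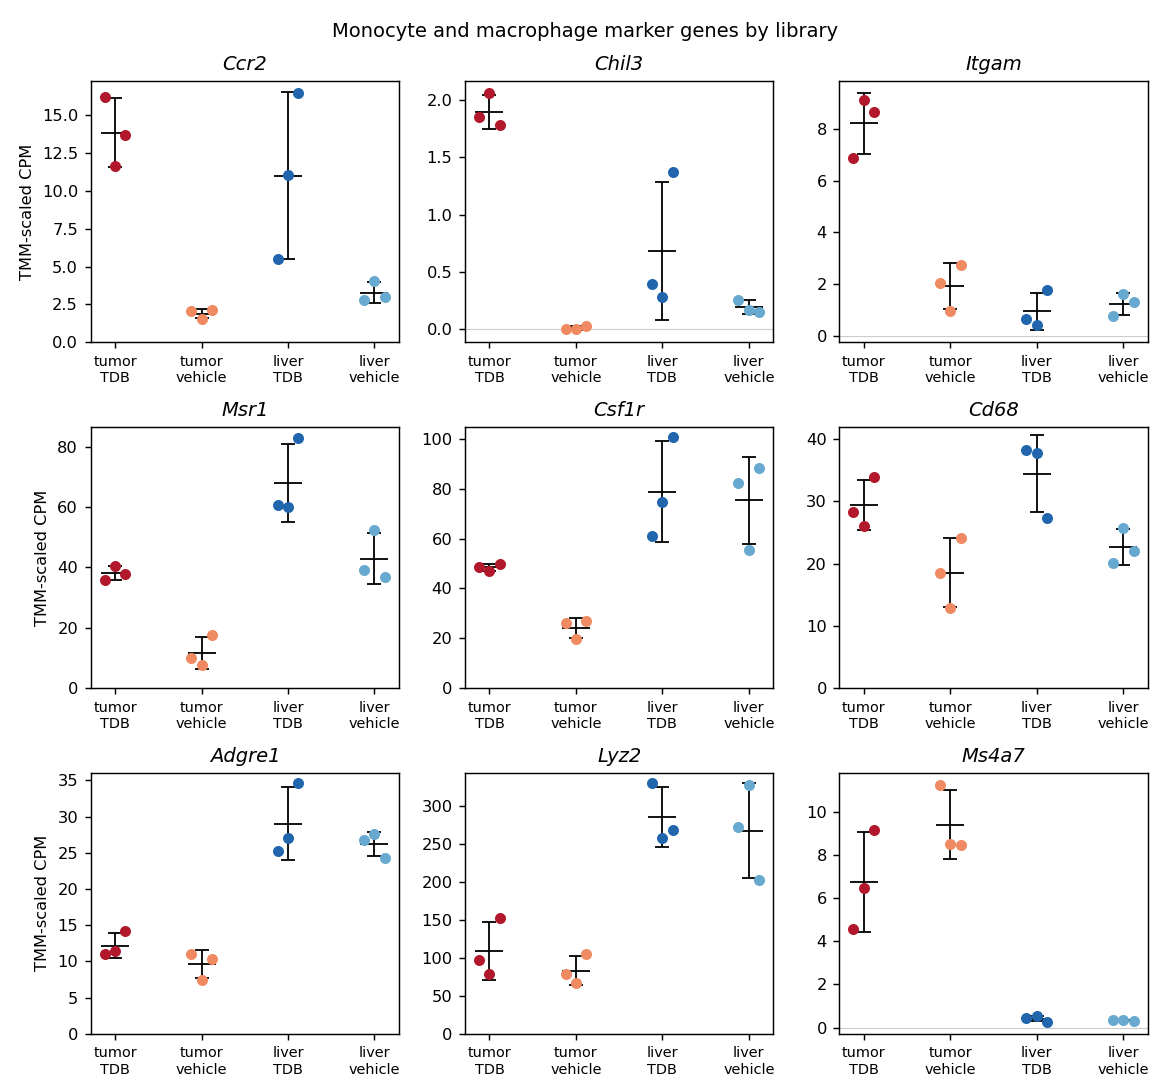
TMM-scaled CPM of each marker gene in each of the 12 libraries (points), with group mean and SD (black bars), TDB beside vehicle for tumor and liver; each panel has its own axis. Ccr2, Chil3, Itgam, Msr1, Csf1r, Cd68 and Adgre1 did not overlap between TDB and vehicle tumors, and Ms4a7 stayed below 1 CPM in every liver.

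Counted together, 6 of the 9 markers passed the test as higher in TDB tumors and 0 as lower, where 15.8% of the 15454 genes tested were called higher and 13.1% lower. The calls over all genes were 2437 higher and 2019 lower under TMM scaling, 2075 and 2991 under upper quartile scaling, and 1856 and 3994 under total-count scaling; upper quartile and total-count scaling each left 5 markers called higher, all but Cd68. The 6 and Adgre1, 7 of the 9, had every TDB tumor above every vehicle tumor, which held for 17.7% of genes tested. The median log2 fold change of the 9 was 1.09, against -0.019 over all genes tested. Ccr2, Chil3, Itgam, Msr1 and Csf1r kept their calls in all 14 alternative fits.

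In livers, no marker passed the test in either direction. Of the 9, 7 were expressed highly enough to be tested, and 0 of those 7 were called higher or lower in TDB livers by edgeR, where 0.513% of 13657 genes were called higher and 0.022% lower. At an unadjusted edgeR p under 0.05, 798 of the 13657 genes were higher and 307 lower. Among the 7 markers, 3 were higher at that cutoff (Ccr2, Msr1 and Cd68) and 0 lower. DESeq2 called 1 (Ccr2) and limma-voom called 0. The median log2 difference of the 7 was 0.19, against 0.043 over all genes tested.

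Ccr2 had 5.48, 11.1 and 16.5 CPM in TDB livers, against 2.77, 4.04 and 3.01 CPM in vehicle livers. Each TDB liver was above each vehicle liver, and the TDB livers were widely spread. The log2 difference of 1.79 (SE 0.44) had an edgeR adjusted p of 0.21. It passed in 4 of 14 alternatives, among them DESeq2 (adjusted p = 0.0086), all 12 libraries in the fit (0.026) and the fit without TDB liver 1 (0.048).

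Msr1 had 60.6, 60.0 and 82.7 CPM in TDB livers, against 39.1, 52.4 and 36.9 CPM in vehicle livers, a log2 difference of 0.71 (SE 0.25; edgeR adjusted p = 0.45). Cd68 had 38.3, 37.7 and 27.3 CPM in TDB livers, against 20.1, 25.8 and 22.0 CPM in vehicle livers, a log2 difference of 0.64 (SE 0.24; edgeR adjusted p = 0.47). Neither marker overlapped between the groups, so that 3 of the 7 tested markers stood wholly above vehicle, beside 8.18% of all genes tested.

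Lyz2, Csf1r and Adgre1 had overlapping groups in liver. Lyz2 averaged 285 ± 39.1 CPM in TDB livers and 267 ± 62.6 CPM in vehicle livers. Csf1r averaged 79.0 ± 20.3 CPM in TDB livers and 75.4 ± 17.4 CPM in vehicle livers. Adgre1 averaged 29.0 ± 5.04 CPM in TDB livers and 26.2 ± 1.71 CPM in vehicle livers. In that order, their log2 differences were 0.13 (SE 0.24), 0.11 (SE 0.28) and 0.19 (SE 0.23). Itgam had 10, 7 and 27 reads in TDB livers and 9, 19 and 17 reads in vehicle livers, with a log2 difference of -0.37 (SE 0.61). For these 4 genes edgeR's adjusted p was 0.85 to 0.92.

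Chil3 and Ms4a7 were too low in liver to be tested there. Chil3 had 6, 5 and 21 reads in TDB livers, against 3, 2 and 2 reads in vehicle livers, with most of the TDB reads in replicate 3. Ms4a7 had 7, 9 and 4 reads in TDB livers and 4 reads in each vehicle liver.

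**Figure D2:**
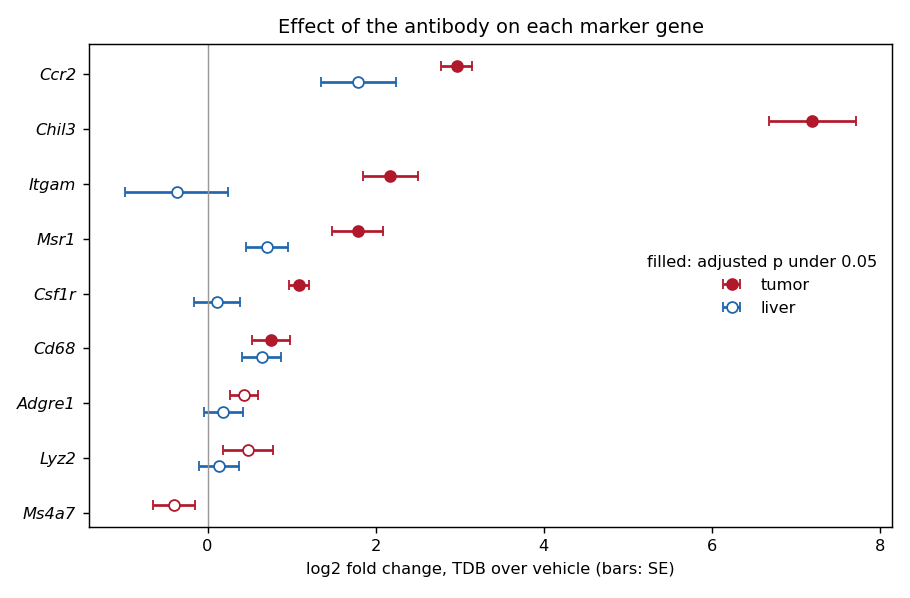
Log2 fold change of TDB over vehicle for each marker, with its standard error, in tumor (red) and in liver (blue); filled points passed an adjusted p of 0.05 and open points did not. The tumor values run between -0.40 for Ms4a7 and 7.20 for Chil3, a fitted value that rests on 1 read in the vehicle tumors, and no liver point is filled.

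Passing in tumor and not in liver does not show that the effects differ, so the difference of the log2 effects, tumor minus liver, was tested in 1 fit of the 12 libraries. By edgeR, 0 of the 9 markers passed in either direction, where 1.83% of 16557 genes were called higher and 0.658% lower (303 and 109 genes, or 267 and 190 under total-count scaling). At an unadjusted edgeR p under 0.05, 947 of the 16557 genes were higher in tumor and 1129 lower. Among the 9 markers, 5 were higher in tumor at that cutoff and 0 lower. DESeq2 called 2 markers (Chil3 and Itgam) and limma-voom 1 (Chil3). The median difference of the 9 was 0.94, against -0.116 over all genes tested.

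Chil3 had a difference of 5.20 (SE 1.26; edgeR adjusted p = 0.054) and Itgam one of 2.51 (SE 0.71; adjusted p = 0.11). Ccr2 differed by 1.13 (SE 0.48; adjusted p = 0.34), Msr1 by 1.04 (SE 0.39; 0.26) and Csf1r by 0.94 (SE 0.32; 0.19). Without TDB liver 3, the library with the most Chil3 and Itgam reads among TDB livers, 4 markers passed: Chil3 (6.27), Itgam (3.42), Ccr2 (1.61) and Csf1r (1.24). Over all genes, that fit called 525 of 16974 higher and 171 lower, against 303 and 109 in the main fit. Its median difference over all genes was 0.023, against -0.116. Without vehicle tumor 3, Msr1 passed (1.46). The differences of Adgre1 (0.20), Lyz2 (0.30), Cd68 (0.06) and Ms4a7 (-0.79) had adjusted p of 0.68 or more by edgeR.

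The markers changed unequally among themselves in tumors. This shows without any library scaling when the reads of one gene are counted per 100 reads of another in the same library, a set of ratios chosen after the values were seen and therefore given without a test. Per 100 Adgre1 reads, Ccr2 had 115 ± 27.4 reads in TDB tumors and 19.7 ± 1.16 in vehicle tumors. Itgam had 67.8 ± 10.6 reads in TDB tumors and 19.4 ± 6.76 in vehicle tumors. Msr1 had 316 ± 45.3 reads in TDB tumors and 120 ± 43.1 in vehicle tumors. In none of these 3 ratios did the tumor groups overlap. In livers, Ccr2 had 36.7 ± 13.4 reads per 100 Adgre1 reads under TDB and 12.5 ± 2.14 under vehicle. Msr1 had 234 ± 10.3 under TDB and 163 ± 24.0 under vehicle there. Neither ratio overlapped between the liver groups. The Itgam ratio did overlap in livers, at 3.05 ± 1.85 under TDB and 4.74 ± 1.61 under vehicle.

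Other ratios were alike or ran the other way. Lyz2 had 882 ± 190 reads per 100 Adgre1 reads in TDB tumors and 873 ± 149 in vehicle tumors, overlapping widely. Ms4a7 had 13.9 ± 4.48 reads per 100 Csf1r reads in TDB tumors and 39.3 ± 6.87 in vehicle tumors, and the groups did not overlap.

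Set against the leukocyte gene Ptprc (CD45), which rose 2.55 on the log2 scale in tumors (SE 0.17; edgeR adjusted p = 3.2e-05), the macrophage receptors had fewer reads after TDB. Adgre1 had 25.3 ± 4.34 reads per 100 Ptprc reads in TDB tumors and 111 ± 15.2 in vehicle tumors. Csf1r had 101 ± 6.56 reads per 100 Ptprc reads in TDB tumors and 280 ± 28.8 in vehicle tumors. Neither of these overlapped between the groups. Ccr2 had 28.5 ± 2.73 reads per 100 Ptprc reads in TDB tumors and 21.8 ± 2.18 in vehicle tumors, without overlap. Itgam had 17.1 ± 3.56 in TDB tumors and 21.1 ± 5.58 in vehicle tumors, with overlap. In livers, Ccr2 had 36.6 ± 7.25 reads per 100 Ptprc reads under TDB and 21.8 ± 3.26 under vehicle, without overlap. Itgam was lower there under TDB, at 3.05 ± 1.47 against 8.15 ± 2.22, also without overlap. The Adgre1 and Csf1r ratios overlapped between the liver groups.

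**Figure D3:**
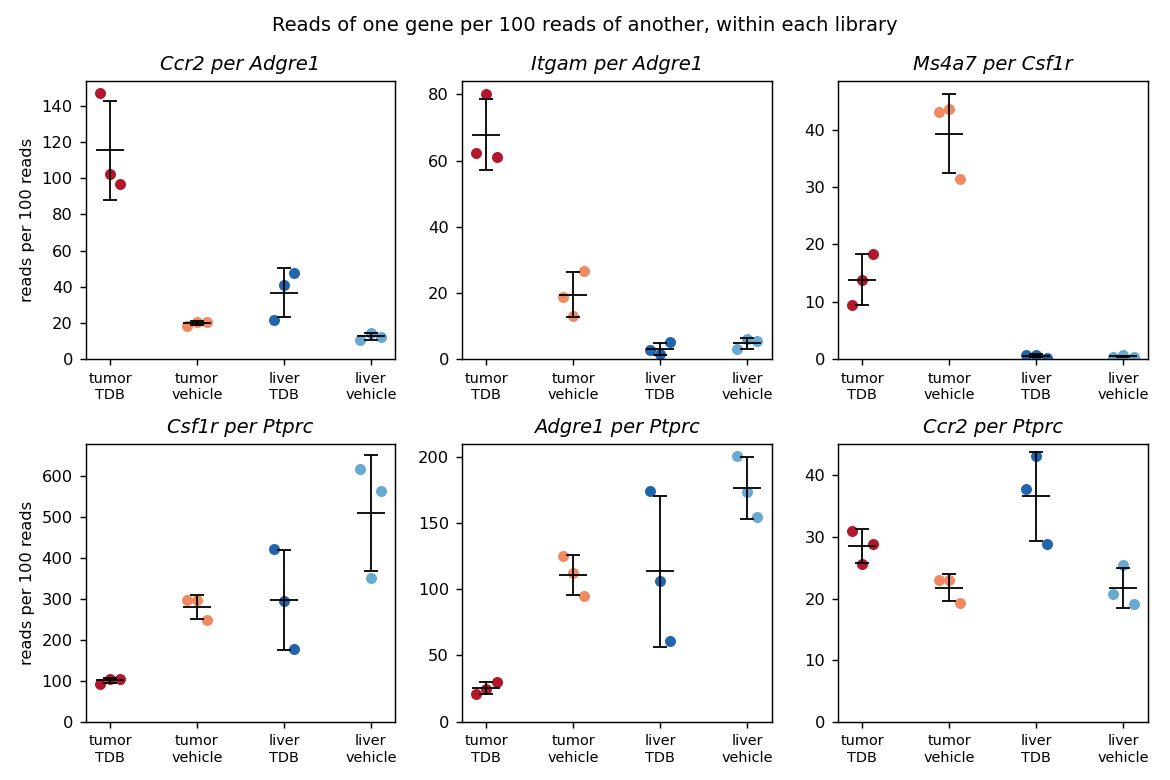
Reads of one gene per 100 reads of another within each library (points), with group mean and SD (black bars), for 6 pairs of genes. Ccr2 per Adgre1 was 115 in TDB tumors and 19.7 in vehicle tumors on average, while Adgre1 per Ptprc was 25.3 in TDB tumors and 111 in vehicle tumors. In livers Ccr2 per Adgre1 was 36.7 under TDB and 12.5 under vehicle, and Adgre1 per Ptprc was 113 and 176.

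The tissues themselves differed in their marker profile, and these comparisons depend on the scaling more than the treatment comparisons do. Under vehicle, Ms4a7 passed as higher in tumors, with a mean of 9.41 ± 1.61 CPM against 0.333 ± 0.0213 CPM in livers (log2 4.79, SE 0.30; edgeR adjusted p = 8.2e-07). That direction and call held under all scalings tried, total counts included. Adgre1 (-1.46), Csf1r (-1.65), Lyz2 (-1.69), Msr1 (-1.88) and Ccr2 (-0.80) were called lower in vehicle tumors than in vehicle livers under TMM scaling. Under total-count scaling none of these 5 was called lower, and Ccr2 was at 0.54 in the other direction; its call held in 7 of 14 alternatives. The count was 1 higher and 5 lower of 8 markers tested by edgeR, where 40.8% of 15633 genes were called higher and 37.8% lower (10495 and 2772 genes under total-count scaling), so that the members' shares are read beside a background in which most genes differ.

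Under TDB, 3 markers were called higher and 4 lower in tumors than in livers. Ms4a7 (log2 4.01, SE 0.40), Itgam (3.14, SE 0.48) and Chil3 (1.48, SE 0.53) were called higher in TDB tumors than in TDB livers, with edgeR adjusted p of 0.00015, 0.0012 and 0.040. Itgam averaged 8.22 ± 1.18 CPM in TDB tumors and 0.940 ± 0.729 CPM in TDB livers, the groups being well apart. Lyz2 (-1.39), Adgre1 (-1.25), Msr1 (-0.84) and Csf1r (-0.70) were called lower in TDB tumors under TMM scaling. Under total-count scaling 5 markers were called higher and 0 lower, and Msr1 and Csf1r turned to 0.29 and 0.41. Under TMM this made 3 higher and 4 lower of 9, beside 34.1% and 33.5% of 15953 genes (9709 and 2556 genes under total-count scaling). Chil3 lost its call when any 1 of TDB livers 1 and 2 or TDB tumors 1 to 3 was left out, and Csf1r kept its call in 7 of 14 alternatives.

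Genes that act with the markers were counted in lists, whose medians are read beside the -0.019 over all genes tested in tumor and the 0.043 in liver. Counts of these and the later lists are read beside the shares of all genes tested. Those were 15.8% called higher and 13.1% lower in tumor, and 0.513% and 0.022% in liver. The 4 ligands of CCR2 all passed as higher in TDB tumors, with a median of 2.96. Ccl2, the main attractant of Ccr2-expressing monocytes, had 15.9, 17.7 and 16.9 CPM in TDB tumors, against 1.57, 1.40 and 7.34 CPM in vehicle tumors (log2 2.37, SE 0.66; edgeR adjusted p = 0.049). Vehicle tumor 3 was the highest of its group for each of the 4 ligands, and TDB tumors did not overlap the vehicle tumors. The calls of Ccl2 and Ccl7 each held in 8 of 14 alternatives, both being lost without the low-count filter and without any 1 TDB tumor or vehicle tumor 1, and each in 1 other alternative (for Ccl2, without vehicle tumor 2), with adjusted p of up to 0.156 for Ccl2 and 0.160 for Ccl7, while Ccl8 and Ccl12 kept theirs in all 14. Ccl7 rose 2.69, Ccl12 rose 3.23 and Ccl8, with 11.6 ± 2.22 CPM in TDB tumors and 0.447 ± 0.562 CPM in vehicle tumors, rose 4.76 on the log2 scale. In liver the 2 ligands tested, Ccl2 (1.51, SE 0.30) and Ccl7 (1.74, SE 0.50), did not pass.

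Of 4 genes tested in the CSF1 and GM-CSF axis, 3 passed as higher in TDB tumors, with a median of 1.18. Csf1, the ligand of the CSF1 receptor, had 64.9, 66.0 and 69.4 CPM in TDB tumors, against 23.8, 25.0 and 33.8 CPM in vehicle tumors, and rose 1.36 (SE 0.13; edgeR adjusted p = 0.00014). Csf2rb, the shared beta chain of the GM-CSF receptor, rose 3.01 and its alpha chain Csf2ra rose 0.99. Il34, the other CSF1 receptor ligand, was at -0.01 (SE 0.22). None of the 4 passed in liver.

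The 5 genes of the list of beta-2 integrin chains and Icam1 all passed as higher in TDB tumors, with a median of 2.57: Itgb2, the alpha chain genes Itgal, Itgax and Itgad, whose products pair with the same beta chain as CD11b does, and the ligand gene Icam1. Itgb2, the beta chain that pairs with CD11b, averaged 48.2 ± 3.74 CPM in TDB tumors and 5.66 ± 1.74 CPM in vehicle tumors (log2 3.17, SE 0.21). Icam1 rose 3.81 and Itgal, the CD11a chain of lymphocytes and other leukocytes, rose 2.57. In liver 0 of 4 tested passed, with Itgb2 at 1.37 (SE 0.37) and Icam1 at 1.25 (SE 0.24).

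Among 11 other monocyte genes, 4 passed as higher and 2 as lower in TDB tumors, with a median of 0.68. Ly6c2, the surface marker of classical monocytes that some T cells also carry, had 148, 180 and 113 reads in TDB tumors, against 1, 0 and 0 reads in vehicle tumors, a depth-scaled ratio of 399 whose 95% interval for counting error runs between 71.2 and 15783. The Fc receptor gene Fcgr4 rose 4.09. Cx3cr1, the fractalkine receptor of patrolling monocytes and many resident macrophages, fell to 7.88 ± 1.76 CPM in TDB tumors, against 24.7 ± 2.70 CPM in vehicle tumors (log2 -1.57, SE 0.16; edgeR adjusted p = 0.00023). The TDB tumors lay below every vehicle tumor for Cx3cr1. In liver 0 of 10 tested passed.

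Of 18 other macrophage genes tested in tumors, 9 passed as higher and 1 as lower, with a median of 0.94. The 1 that fell was the haptoglobin-hemoglobin receptor gene Cd163, named after its value was seen (log2 -1.46, SE 0.38). Cd14, the lipopolysaccharide co-receptor, averaged 691 ± 146 CPM in TDB tumors and 131 ± 6.70 CPM in vehicle tumors, a rise of 2.49. The high-affinity IgG receptor gene Fcgr1 rose 2.50 and Aif1 rose 1.78. Of 9 myeloid transcription factor genes, 5 passed as higher and 0 as lower, among them Irf8 (3.23, SE 0.14), a regulator of monocyte and dendritic cell development, Spi1 (1.82, SE 0.19), which encodes PU.1, and Mitf (0.85, SE 0.14).

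Lists built around single markers moved in different ways in tumors, where 15.8% of all genes tested were called higher and 13.1% lower. Of 8 scavenger receptor genes beside Msr1, 1 passed as higher (Olr1, 2.54) and 3 as lower, including Scarb1 (-0.59) and Scara5 (-0.94), with a list median of -0.57. Of 7 MS4A relatives of Ms4a7, 5 passed as higher and 0 as lower, led by Ms4a4c (3.88), Ms4a6d (2.03) and Ms4a6c (1.94), beside -0.40 for Ms4a7, which did not pass. Of 2 chitinase-like or lysozyme paralogs tested, Chil1 fell by 0.79 on the log2 scale, the opposite sign to Chil3, at 3235 ± 315 CPM in TDB tumors and 5923 ± 789 CPM in vehicle tumors. Of 9 lysosomal genes, 4 passed as higher, among them the cathepsins Ctss (1.89), Ctsb (0.90) and Ctsz (0.79).

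In liver, 2 genes of these lists passed, Irf8 and Marco. Irf8 averaged 51.6 ± 7.41 CPM in TDB livers and 17.3 ± 1.64 CPM in vehicle livers (log2 1.62, SE 0.22; edgeR adjusted p = 0.034). Marco, a scavenger receptor of Kupffer cells, had 80.3, 120 and 212 CPM in TDB livers, against 25.3, 14.3 and 23.8 CPM in vehicle livers (log2 2.75, SE 0.42; edgeR adjusted p = 0.043). Each TDB liver stood above each vehicle liver for both genes. Irf8 kept its call in 10 of 14 alternatives and Marco in 9, and both lost it without TDB liver 2 or any 1 vehicle liver.

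**Figure D4:**
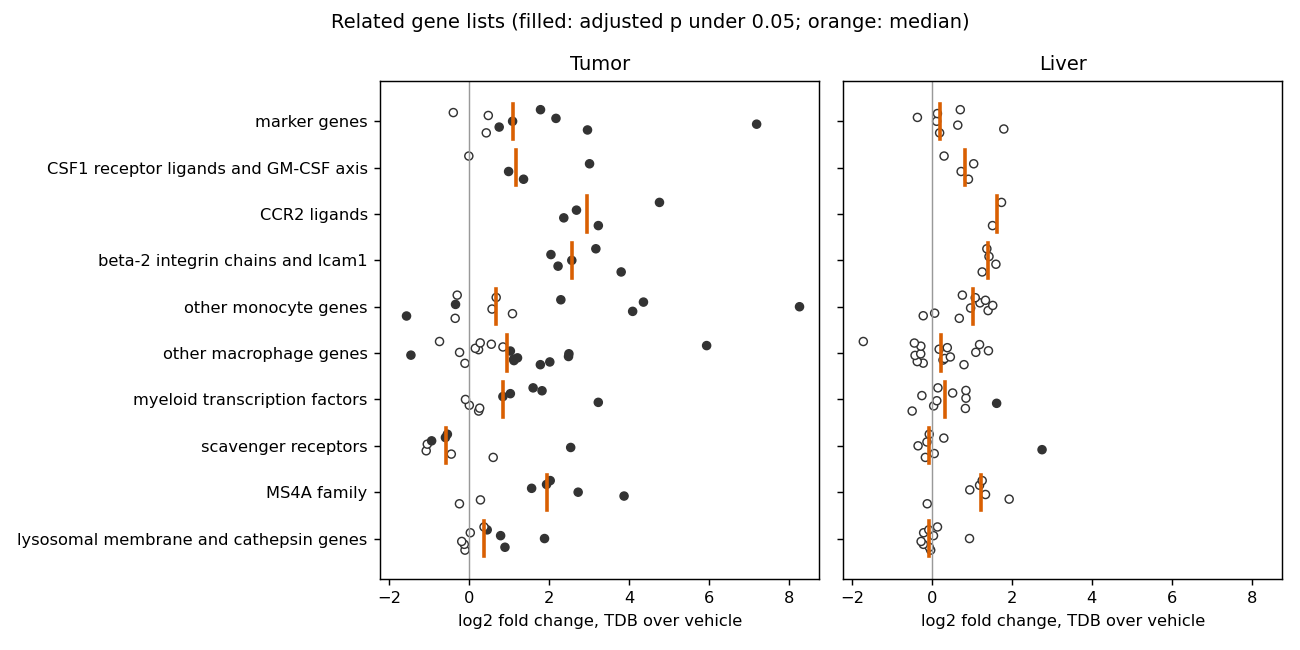
Log2 fold change of TDB over vehicle for every tested gene of 10 lists in tumor and in liver; filled points passed an adjusted p of 0.05 and orange bars are list medians. The 4 CCR2 ligands and the 5 genes of beta-2 integrin chains and Icam1 lie right of 0 in tumor and are all filled, while 2 points are filled in liver, Irf8 and Marco.

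Markers of other cell types moved along with the monocyte and macrophage markers in tumors. Their counts stand beside 15.8% of all genes tested called higher there and 13.1% lower. All 6 pan-leukocyte genes passed as higher, summing to 203 to 209 CPM in TDB tumors and 53.0 to 86.6 CPM in vehicle tumors. Of 7 T cell genes 6 passed as higher (sums of 9.21 to 15.8 CPM in TDB tumors and 1.91 to 3.66 CPM in vehicle tumors). All 4 NK cell genes tested passed (8.93 to 13.3 CPM in TDB tumors and 0.152 to 0.276 CPM in vehicle tumors). Of 6 dendritic cell genes 4 passed (10.7 to 14.9 CPM in TDB tumors and 8.70 to 9.71 CPM in vehicle tumors). Cd3e of T cells, Klra8 of NK cells and Clec9a of dendritic cells were at 0 reads in vehicle tumors.

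Neutrophils share Itgam, Chil3 and Lyz2 with monocytes. Of 6 neutrophil genes tested 3 passed as higher, S100a8 (2.95), Cxcr2 (2.49) and Csf3r (2.27), whereas S100a9 was at 1.23 (SE 0.59) without passing. The 9 neutrophil genes other than Ltf, which is also a milk protein gene and had up to 4215 CPM in TDB tumors and 2911 CPM in vehicle tumors, summed to 25.5 to 48.9 CPM in TDB tumors and 3.25 to 8.08 CPM in vehicle tumors. Of the listed neutrophil genes, Ngp and Ly6g were at or near 0 in tumors. Ngp had 0 reads in all tumors, and Ly6g had 0, 3 and 0 reads in TDB tumors and 0 in vehicle tumors. Both were also low in livers, with 5 Ly6g and 10 Ngp reads over the TDB livers and 0 and 2 over the vehicle livers. There the 9 genes summed to 30.2 to 52.0 CPM under TDB and 20.8 to 40.1 CPM under vehicle. B cell genes were too low to be tested in tumors (0.778 to 1.10 CPM summed in TDB tumors and 0.121 to 0.207 in vehicle tumors). The part of these other cell types in the marker results was not tested.

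Kupffer cell genes separated the tissues. Clec4f, the lectin that defines mouse Kupffer cells, had 0 reads in all 6 tumors, and it averaged 258 ± 104 CPM in TDB livers and 444 ± 110 CPM in vehicle livers without passing. The 8 Kupffer genes summed to 10.5 to 11.4 CPM in TDB tumors, 17.7 to 19.4 in vehicle tumors, 1300.0 to 1349 in TDB livers and 1368 to 1669 in vehicle livers. Of 3 tested in tumors, the phosphatidylserine receptor gene Timd4 rose 4.98 (2.20 ± 0.0997 CPM in TDB tumors and 0.0703 ± 0.0765 in vehicle tumors) and the iron exporter gene Slc40a1 fell by 1.05. In liver 1 of 8 passed, Marco, and Timd4 (0.87, SE 0.19) and Cd5l (0.45, SE 0.26) did not.

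In livers the other lists gave few calls. Of T cell genes 1 of 7 passed, Cd8a (2.98, with its call kept in 10 of 14 alternatives), with sums of 34.9 to 41.9 CPM in TDB livers and 16.05 to 18.8 CPM in vehicle livers. Of the pan-leukocyte (6 tested), NK (2), B (3), dendritic (6) and neutrophil (5) genes 0 passed, and pan-leukocyte sums were 234 to 265 CPM in TDB livers and 144 to 208 CPM in vehicle livers. Of the tissue lists in tumors, 2 of 6 mammary epithelial genes fell (Erbb2, -0.58, and Krt8, -0.27), 1 of 4 endothelial genes fell (Kdr, -0.94), and 0 of 5 fibroblast and 0 of 3 hepatocyte genes passed; in liver 0 of these 4 lists' genes passed. The 6 hepatocyte genes summed to 148563 to 190732 CPM in TDB livers and 231212 to 275881 CPM in vehicle livers, without overlap. The 6 mammary epithelial genes summed to 612 to 899 CPM in TDB livers and 390 to 509 CPM in vehicle livers, also without overlap, and the part of these shifts in the liver values of the markers was not tested. In tumors the calls of Cxcr2 (kept in 8 of 14 alternatives), Krt8 (7), Scara5 (9) and Olr1 (11) were lost without TDB tumor 2 or vehicle tumor 1, among others.

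The genes most like each marker over the 12 libraries were ranked among 16557 genes by Pearson's r of log2(CPM + 1), as a description in which tissue and treatment differences are shared by all points. Adgre1 was most like Esr1 (r = 0.99) and C1s2 (0.98), Csf1r most like Tnfrsf1b (0.99) and C4b (0.97), and Lyz2 most like Cd300a and Il13ra1 (both 0.97). Ccr2 was most like Gm5970 and F830016B08Rik (both 0.98), and Chil3 most like Ly75 (0.99) and Nlrc5 (0.98). Msr1 was most like Hpse and Mx2 (both 0.97), Itgam most like Gm43197 and Ch25h (both 0.96), Cd68 most like Fxyd5 (0.93) and Glipr2 (0.92), and Ms4a7 most like Ism1 and 1700001O22Rik (0.997 and 0.996).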

How the data were processed

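The authors deposited a table of whole-number read counts per gene, not normalized, for 12 libraries (total RNA of dissociated tumor and liver), and a table of FPKM values that was not used. GSNAP, limma and the build GRCm38 are named, without versions or roles, per the submitters' processing notes. Which read counter, annotation and strand setting were used is not given in the sources used here. Reads of genes that overlap on opposite strands could not be told apart. Groups and library numbers were taken from the titles, and the series' design text counts 3 mice per treatment. Tumor and liver libraries of a treatment can therefore share mice. The main tests between tissues and of the difference treated all libraries as independent.

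Symbols came from GENCODE release M21, which matched 52489 of 52636 identifiers. These counts went into edgeR 4.0.16 (R 4.3.3; TMM; filterByExpr minimum count 10, minimum total 15; robust quasi-likelihood F test), with p adjusted by Benjamini and Hochberg over all genes tested at a threshold of 0.05. TDB was compared with vehicle within each tissue, the difference of effects over 12 libraries, and tumor with liver within each treatment. SE was derived from the log2 fold change and its F statistic. Levels are TMM-scaled CPM. Alternatives were other scalings, no filter, DESeq2 1.42.0, limma-voom 3.58.1, all 12 libraries in the fit, a replicate block and leaving out each library; total-count scaling was added after seeing the data. Simulated counts held 200 changed genes, split evenly between log2 changes of 1 and 2. A log2 change of 2 was recovered for 91% of genes in tumor, 75% in liver and 43% for the difference. Calls that fell on unchanged genes were 13 of 169 in tumor, 4 of 84 in liver and 2 of 46 for the difference. For tumor against liver they were 7 of 86 under TDB and 11 of 153 under vehicle.

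All 9 markers were named. From each other list the up to 3 genes with the lowest p among those passing in tumor, up to 2 in liver, and a short list of ligands and defining markers were named, and the 2 genes most like each marker. The markers, lists and comparisons were chosen with earlier results of these data known. 1 gene of the monocyte list is not reported here and was left out of its counts.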

Additional observations from a re-analysis of the deposited data

Results flagged for a closer look

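Each gene here is one of the related list genes whose TDB effect differed between tumor and liver in the interaction test over 12 libraries (edgeR, Benjamini-Hochberg adjusted p of 0.0007 to 0.032), higher in tumor in each case. The log2 differences, tumor minus liver, among monocyte and macrophage genes were 6.56 for Ly6c2, 2.64 for Fcgr4, 2.87 for Cd14 and 4.04 for Timd4. They were 2.51 for Icam1, 1.93 for Csf2rb and 1.57 for Irf8. Among genes of other cell types they were 3.96 for Siglech of plasmacytoid dendritic cells, 4.01 for Cd3d of T cells, and 4.95 for Klrk1 and 4.23 for Ncr1 of NK cells. Ly6c2, Cd3d, Ncr1, Siglech, Klrk1 and Timd4 start from few or no reads in vehicle tumors, so the sizes of their differences are loosely bounded. Csf2rb kept its call in 10 of 19 alternatives, with an adjusted p of up to 0.093. None of the 9 marker genes passed this edgeR test.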

How the results depend on the processing

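Among the alternative values for single markers, 563 kept direction and side of the threshold, 23 gained a call, 31 lost one and 16 turned sign. Total-count scaling, added after seeing the data, moved the median log2 change of all genes to -0.152 in tumor, 0.153 in liver and -0.31 for the difference of effects, against -0.019, 0.043 and -0.116, and to 1.17 and 1.42 for tumor against liver under TDB and vehicle, against 0.040 and 0.085. It gave 3994 genes lower in TDB tumors, 1 lower in TDB livers and 190 lower for the difference. For tumor against liver it gave 5 markers higher and 0 lower under TDB (9709 and 2556 genes) and 3 higher and 0 lower under vehicle (10495 and 2772 genes). Signs then turned for Csf1r (0.41), Msr1 (0.29) and Cd68 (0.92) under TDB, for Cd68 (1.04) and Ccr2 (0.54) under vehicle, and for Adgre1 (-0.011) and Cd68 (-0.12) in the difference. Summed marker levels in plain CPM were 405 in TDB tumors, 249.6 in vehicle tumors, 350.4 in TDB livers and 271 in vehicle livers, against TMM-scaled means of 268, 160, 509 and 439 CPM in the same order.

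In TDB livers, 1 marker (Ccr2) was called higher by DESeq2, with all 12 libraries in the fit and with the replicate block. Over all genes the liver calls were 292 higher and 60 lower by DESeq2, 282 and 41 with 12 libraries, 291 and 59 with the block, 133 and 12 without the filter, and 5 lower under upper quartile scaling. With 12 libraries in the fit, tumor calls were 1068 higher and 627 lower. For the difference, 1 marker (Chil3) was called under median-of-ratios and upper quartile scaling, without the filter and by limma-voom, and 2 by DESeq2, which called 582 genes higher and 315 lower. The causes were not tested.

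The labels do not tie library numbers to mice. Same-numbered libraries did not all correlate (-0.109 to 0.641 in liver, 0.035 to 0.324 in tumor, -0.0658 to 0.126 across tissues), and the numbers were not taken to pair samples. The within-tissue values compare TDB with vehicle libraries, and low values across tissues do not show that the mice differ. The replicate block gave 8 markers higher in TDB tumors, adding Adgre1 (adjusted p = 0.0499) and Lyz2 (0.0059), ended the call of Ccl7 in tumors (0.07) and gave 42 genes lower for the difference.

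Leaving out 1 library at a time gave 5 to 6 markers higher and 0 to 1 lower in TDB tumors (1797 to 2717 and 1145 to 2143 genes), and 0 to 1 higher in TDB livers (14 to 151 genes higher and 0 to 12 lower). It gave 0 to 4 for the difference (196 to 525 genes higher and 45 to 177 lower). For tumor against liver it gave 2 to 4 markers higher and 3 to 5 lower under TDB (4598 to 7105 and 4552 to 6542 genes), and 1 higher and 4 to 5 lower under vehicle (6048 to 6688 and 5568 to 6090 genes). Signs turned within -0.0043 to 0.73 for Ccr2 between tissues under TDB, -0.11 to 0.27 for Csf1r and -0.032 to 0.32 for Lyz2 in liver, and -0.016 to 0.49 for Lyz2 and -0.15 to 0.29 for Cd68 in the difference. In simulated counts a log2 change of 1 was recovered for 65% of genes in tumor, 5% in liver and 1% for the difference, which limits what the liver and difference tests could call.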
